A study of Saccharomyces cerevisiae with 15 samples.

Results

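Yeast cells that carried gcn5-F221A under the strongest promoter of the series were set against wild-type cells over all S. cerevisiae genes of the array. The comparison takes 6 of the 15 arrays in the series, 3 at promoter strength 0.95 and 3 of wild-type. The gcn5-F221A 0.95 strain was S288C (MATα) that kept its native GCN5 gene and carried gcn5-F221A on a centromeric plasmid, behind a mutated TEF promoter with 95% of the expression of the TEF promoter. Wild-type was S288C with the same plasmid type but no gcn5-F221A. The S288C background of both strains carries, among other markers, mal and hap1 alleles. Both grew in minimal medium that held glucose (20 g/L), yeast nitrogen base (6.7 g/L) and G418, the drug that selects for the plasmid (200 µg/mL), from an optical density of 0.0045 to harvest at 0.4 to 0.5. The other 9 arrays, of gcn5-F221A at strengths 0.32 and 0.68 and of a gcn5 null strain with the control plasmid, entered the fit only through the shared estimate of spread, except where they are named.

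Gcn5p is the catalytic subunit of the SAGA and ADA complexes, which acetylate lysines in the tail of histone H3 at promoters. SAGA also holds structural, deubiquitinating and TATA-binding-protein-binding modules, so a strain without GCN5 lacks a subunit as well as an activity. The F221A protein has lost acetyltransferase activity and can take the place of the native subunit in the complexes, which makes it a dominant mutant, and the comparison asks which transcripts change when such a subunit is present in excess. A mutagenic oligonucleotide of the study is printed here 5′ to 3′ because it carries the designed change of the protein. The primer list does not name the substitution each oligonucleotide makes, and this one was taken as that of F221A from the known order of residues in Gcn5p. The capitals mark its alanine codon, taken to be that of F221A.

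gcn5-F221A oligonucleotide: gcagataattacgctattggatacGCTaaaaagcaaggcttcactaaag

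GCN5 (YGR252W, chromosome VII, 996869 to 998188 of assembly R64) checked the labels. Its log2 signal was 13.20, 13.11 and 13.08 on the arrays at 0.95, against 8.97, 8.93 and 8.86 on the wild-type arrays. All signals here are log2 values after robust multi-array averaging (RMA), which includes quantile normalization, so a difference of 1 is a factor of 2. The difference of 4.21 (standard error 0.08, adjusted p = 1.71e-12) is 18.5-fold, and the probe set reads the native and the F221A transcripts together. A gene was called when its p-value, moderated by limma and adjusted for the 5449 genes tested by the Benjamini-Hochberg procedure, was under 0.05.

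Of the 5449 genes, 680 were called (12.5%), of which 395 were higher at 0.95 (7.25%) and 285 were lower (5.23%). Most of these differences were small, with a median size of 0.52 among the called genes and 0.15 over all genes, and 313 of the 680 were under 0.5. Over 2-fold differences were found for 48 genes that were higher (0.881%) and 22 that were lower (0.404%). The 3 arrays at 0.95 did not overlap the 3 wild-type arrays for any of the 680 called genes, while 2114 of all 5449 genes (38.8%) had arrays that did not overlap. Deviations from the strain mean correlated at 0.72, 0.19 and 0.47 between same-numbered arrays of the 2 strains. A fit of the 6 arrays alone gave 926 calls. With the replicate number as a block, chosen after seeing the data, the 6 arrays gave 1678 calls, 967 higher and 711 lower. Of the 680 genes, 679 were among these 1678 with the same direction. In the list counts that follow, the block is that of this fit of 6 arrays. Its list counts stand against 967 higher and 711 lower of all 5449 genes, larger shares than in the fit of 15 arrays. The pairing was not seen over all 5 strains, where 2 of 15 arrays deviated most like an array of their own number. Leaving out any 1 of the 6 arrays gave 379 to 447 calls, and 292 of the 680 genes were called whichever of the 15 arrays was left out.

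Replicates correlated at 0.988 to 0.997 at 0.95 and 0.994 to 0.998 in wild-type over the S. cerevisiae genes, and the mean SD per gene was 0.145 at 0.95 and 0.125 in wild-type. The difference between 5′ and 3′ probe sets of control transcripts, a sign of RNA integrity, was -3.44, -3.14 and -2.76 at 0.95 and -3.67, -3.40 and -3.24 in wild-type. These ranges overlapped, but within each same-numbered pair the value at 0.95 was the higher. The median signal of the S. cerevisiae probe sets was 9.58, 9.57 and 9.57 at 0.95 and 9.56, 9.55 and 9.54 in wild-type. That of the S. pombe probe sets, which read background, was 3.47, 3.45 and 3.42 at 0.95 and 3.55, 3.52 and 3.50 in wild-type. The 2 strains did not overlap in either median, and the part of RNA integrity and background in the differences was not tested. The number of arrays limits the precision, with a median half-width of 0.267 for the 95% interval of a difference. The 95th percentile of the S. pombe probe sets over all arrays, 5.18, was taken as a background level. On single arrays it was 5.14, 5.16 and 5.07 at 0.95 and 5.31, 5.27 and 5.27 in wild-type. In all 213 genes lay under it in both strains, 15 of them among the called genes. As markers of mating type, none of the 5 measured alpha-cell genes and none of the 7 measured a-cell genes was called by limma, while with the block 2 alpha-cell genes were lower and 1 a-cell gene was higher. MF(ALPHA)1, an alpha-factor gene, had signals of 14.46, 14.46 and 14.44 at 0.95 and 14.51, 14.49 and 14.46 in wild-type.

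**Figure D1:**
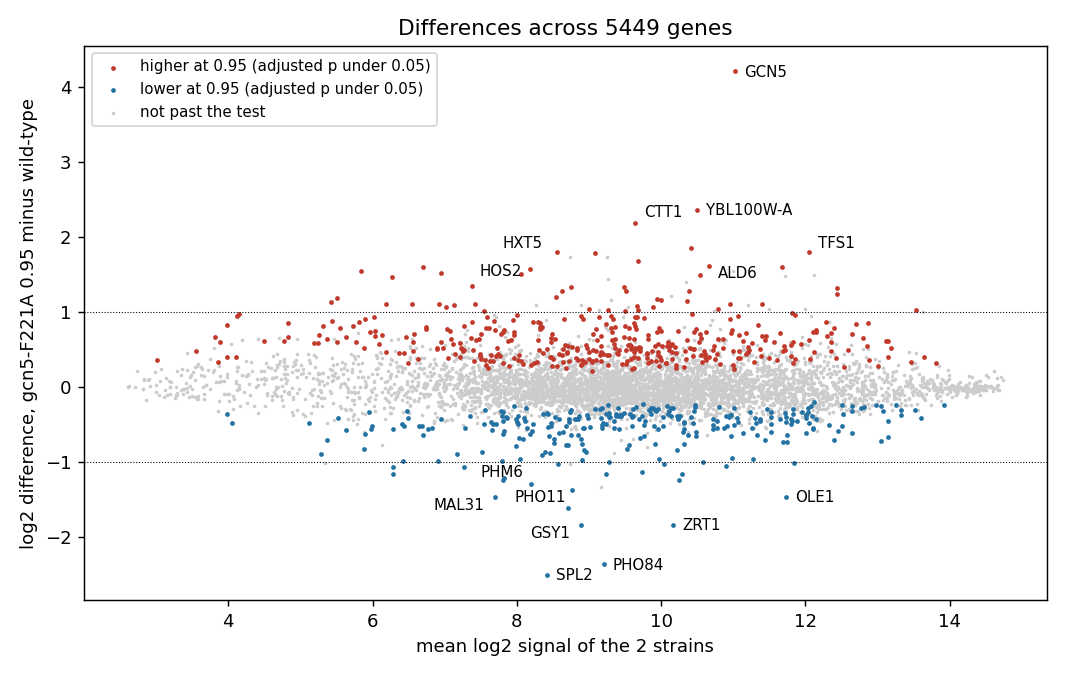
Log2 difference (gcn5-F221A 0.95 minus wild-type) against the mean log2 signal of the 2 strains for 5449 genes. Red points are the 395 genes called higher at 0.95, blue points the 285 called lower and grey points the rest; dotted lines mark a 2-fold difference, and GCN5 at 4.21 and SPL2 at -2.50 lie at the ends of the range.

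The genes that fell most were those of phosphate uptake. In yeast, low phosphate lets the activator Pho4p switch on genes for phosphate transport, for secreted acid phosphatases and for the vacuolar polyphosphate store. SPL2, which encodes an inhibitor of low-affinity phosphate transport (chromosome VIII), had log2 signals of 7.54, 7.02 and 6.95 at 0.95, against 9.95, 9.64 and 9.41 in wild-type. Its difference of -2.50 (standard error 0.20, adjusted p = 1.62e-05) was the largest fall of the table. PHO84, the high-affinity phosphate transporter (chromosome XIII), had 7.90, 8.07 and 8.09 at 0.95 and 10.37, 10.56 and 10.22 in wild-type, a difference of -2.36 (standard error 0.15, adjusted p = 1.72e-06). For both genes the highest array at 0.95 lay more than 1 log2 unit below the lowest wild-type array.

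PHO11, a secreted acid phosphatase whose probe set cannot separate it from its near-identical copy PHO12, had signals of 8.15, 8.01 and 8.08 at 0.95 and 9.63, 9.48 and 9.24 in wild-type (difference -1.36, adjusted p = 5.58e-06). PHM6, a phosphate-regulated gene of unknown function, fell by 1.29 (adjusted p = 1.47e-04). The vacuolar transporter chaperone subunits, which make polyphosphate, fell by less: VTC3 by 0.68 (adjusted p = 2.00e-04), VTC4 by 0.47 and VTC2 by 0.34. The list of the phosphate regulon had 16 measured genes, of which 7 fell (43.8%, against 5.23% of all genes), 0 rose and 9 were not called. Its median difference was -0.32, against -0.0017 for all genes tested. PHO5, the major acid phosphatase, had 7.24, 7.12 and 7.19 at 0.95 and 7.51, 7.57 and 7.37 in wild-type. Its arrays did not overlap, but the difference of -0.30 missed the threshold (adjusted p = 0.0596, and 0.0278 with the replicate block in the 6 arrays). PHO4 itself, which was not in the list and is named here after its values were seen, was higher by 0.62 (adjusted p = 0.00525). When 1 of the 6 arrays was left out, 6 or 7 of the 7 falls of the list were called again.

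**Figure D2:**
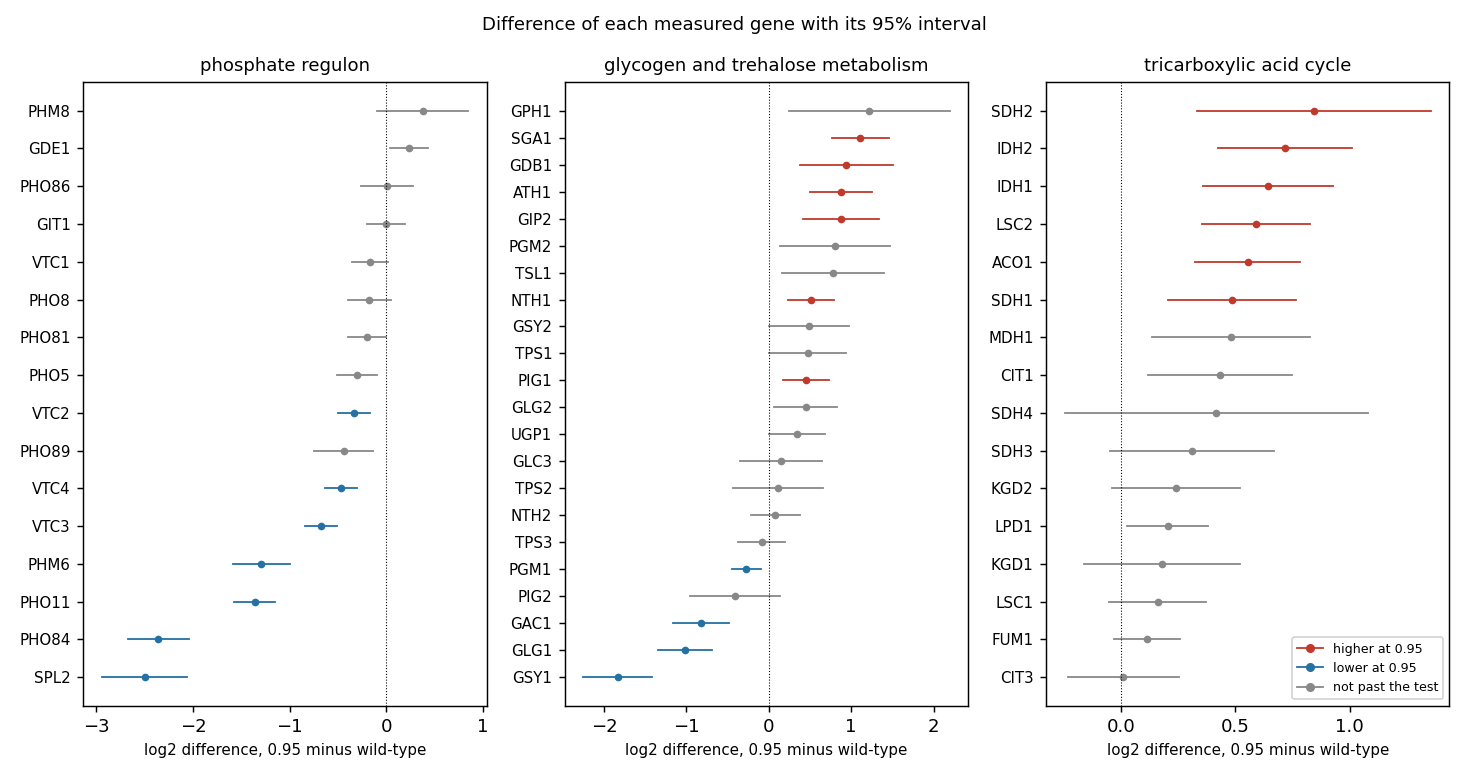
Log2 difference of each measured gene (gcn5-F221A 0.95 minus wild-type) with its 95% interval in 3 gene lists. Points right of 0 are higher at 0.95: the phosphate list has 7 called genes, all lower, the tricarboxylic acid cycle list 6, all higher, and the glycogen and trehalose list 6 higher and 4 lower.

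Genes of metal uptake fell as well. ZRT1, the high-affinity zinc transporter (chromosome VII), had log2 signals of 9.37, 9.32 and 9.06 at 0.95 and 11.33, 11.27 and 10.64 in wild-type. The difference was -1.83 (standard error 0.21, adjusted p = 1.93e-04), and wild-type replicate 3 lay below the other wild-type arrays. Of 17 measured genes of zinc homeostasis 4 fell (23.5%, against 5.23% of all genes) and 1 rose (5.9%, against 7.25%). The other falls were IZH4 at -1.21 and IZH2 at -0.97, membrane proteins linked to zinc and sterol metabolism, and ZRT2, the low-affinity zinc transporter, at -0.50. ZRG8, a zinc-regulated gene, rose by 0.64 (adjusted p = 0.0133).

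Of 26 measured genes of iron and copper uptake 8 fell (30.8%, against 5.23% of all genes) and 0 rose, with a median of -0.26. FET4, the low-affinity iron transporter, had 9.35, 9.57 and 9.54 at 0.95 and 10.68, 10.71 and 9.95 in wild-type (difference -0.96, adjusted p = 0.0175, and 0.0761 at most when 1 array was left out). FET3, the multicopper oxidase of high-affinity iron uptake, had 11.40, 11.47 and 11.26 at 0.95 and 12.10, 12.15 and 12.09 in wild-type (difference -0.74, adjusted p = 7.46e-05). The siderophore transporters SIT1 and ARN2 fell by 0.49 and 0.47, and the reductases FRE2 and FRE6 by 0.54 and 0.42. Without 1 of the 6 arrays, 3 to 6 of the 8 iron and copper falls were called again, and with the block 14 genes of the list were lower.

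Transcripts of stress-response genes rose. Msn2p and Msn4p are the activators of the general stress response, which is low in cells growing fast on glucose and increases when glucose runs short. Of 46 measured stress genes 20 rose (43.5%, against 7.25% of all genes) and 1 fell, 45 had a difference above 0, and the median difference was 0.91. The mean signal over the list was 11.01, 11.16 and 11.12 at 0.95 and 10.12, 10.11 and 10.37 in wild-type, so each array at 0.95 lay above each wild-type array. CTT1, the cytosolic catalase, had 10.57, 10.89 and 10.74 at 0.95 and 8.33, 8.30 and 9.00 in wild-type (difference 2.19, standard error 0.53, adjusted p = 0.0180). SIP18, a protein of desiccation tolerance, rose by 1.85 (adjusted p = 0.0492), TFS1, an inhibitor of the vacuolar carboxypeptidase Y, by 1.81 (adjusted p = 0.0219), RTN2, a reticulon-like protein, by 1.60 (adjusted p = 0.0210) and PAI3, an inhibitor of proteinase A, by 1.51 (adjusted p = 0.0378). GLG1, a primer of glycogen chains, was the gene of the list that fell, by 1.02. This list shares GLG1, GDB1, NTH1 and ATH1, among others, with the list of glycogen and trehalose genes.

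The errors of these stress genes were wide, and the strains that share the estimate of spread varied more: the SD of CTT1 was 0.16 at 0.95 and 0.40 in wild-type, beside 1.27 at 0.32 and 0.92 at 0.68. CTT1 missed the threshold without 0.95 replicate 2 (adjusted p = 0.063) or 3 (0.0536), or without wild-type replicate 1 (0.0653) or 2 (0.0671). SIP18 missed it without any 1 of the 6 arrays, and 5 to 12 of the 20 rises in the list were called again when 1 of these arrays was omitted. In the 6 arrays alone, with the replicate block, 42 of the 46 genes were called higher and 1 lower. HSP12, a small heat shock protein, had 14.75, 14.72 and 14.69 at 0.95 and 14.51, 14.50 and 14.49 in wild-type, near the top of the array's range (difference 0.22, adjusted p = 0.0826). MSN2 and MSN4 did not pass the test, with differences of -0.09 and 0.14.

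**Figure D3:**
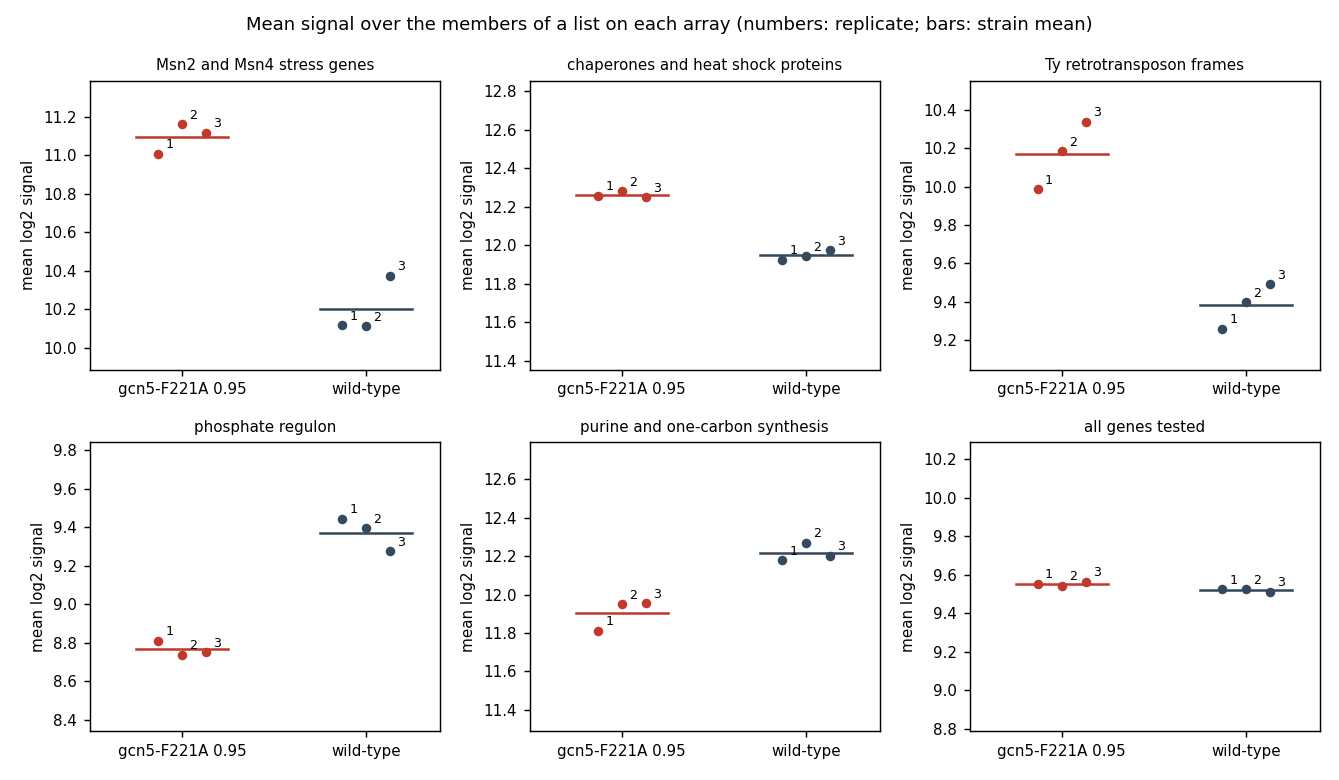
Mean log2 signal over the members of 5 gene lists and over all 5449 genes on each array at 0.95 (red) and in wild-type (dark blue), with the replicate number beside each point and a bar at the strain mean. All panels span 1.5 log2 units; the 3 arrays at 0.95 lie apart from the 3 wild-type arrays in each of the 5 lists, and by a small margin over all genes (9.55, 9.54 and 9.56 at 0.95, against 9.53, 9.53 and 9.51 in wild-type).

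Some cytosolic and mitochondrial chaperones rose by smaller but steadier amounts. Of 25 measured chaperone and heat shock genes 11 rose (44.0%, against 7.25% of all genes), 1 fell (4.0%, against 5.23%) and 13 did not pass the test. In this list 21 differences were above 0 and 4 below. AHA1, the co-chaperone that stimulates Hsp90, had signals of 10.08, 10.12 and 9.95 at 0.95 and 9.15, 9.23 and 9.21 in wild-type (difference 0.85, standard error 0.07, adjusted p = 1.62e-05). HSP82, an Hsp90, rose by 0.78 (adjusted p = 8.68e-04), STI1, which joins Hsp70 to Hsp90, by 0.63, SSA1, a cytosolic Hsp70, by 0.62, and HSP60, the mitochondrial chaperonin, by 0.40. The cyclophilins CPR6 and CPR7, also Hsp90 partners, rose by 0.58 and 0.55. HSP30, a plasma membrane heat shock protein, was the member that fell, with 11.06, 11.19 and 11.00 at 0.95 and 11.73, 11.77 and 11.85 in wild-type (difference -0.70, adjusted p = 0.0210). Of 27 genes of peroxide and redox defence 0 were called by limma, with 18 differences above 0 and a median of 0.13, while with the block 10 were higher. AHP1 and TSA1, 2 abundant peroxiredoxins, had differences of 0.13 and 0.08.

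Glycogen and trehalose genes moved in both directions. GSY1, a glycogen synthase (chromosome VI), had 7.89, 8.19 and 7.84 at 0.95 and 9.85, 9.76 and 9.81 in wild-type, a difference of -1.84 (standard error 0.19, adjusted p = 1.32e-04). GLG1 had 8.16, 8.11 and 7.94 at 0.95 and 9.03, 8.96 and 9.27 in wild-type (adjusted p = 0.00106), and GAC1, a phosphatase subunit that activates glycogen synthase, fell by 0.82. PGM1, a phosphoglucomutase, fell by 0.28 (adjusted p = 0.0442). Of the 6 genes that rose 4 encode enzymes that break the carbohydrates down. SGA1, a glucoamylase of sporulation, rose by 1.11 (adjusted p = 8.68e-04), GDB1, the glycogen debranching enzyme, by 0.94 (adjusted p = 0.0351), ATH1, the acid trehalase, by 0.88 and NTH1, the neutral trehalase, by 0.51. The other rises were of PIG1, by 0.45 (adjusted p = 0.0397), and GIP2, which was below the background level in wild-type (at least 1.6-fold higher, adjusted p = 0.0192), and both encode putative phosphatase subunits related to GAC1. GPH1, glycogen phosphorylase, had 10.60, 10.82 and 10.80 at 0.95 and 9.28, 9.39 and 9.89 in wild-type, and its difference of 1.22 did not pass the test (adjusted p = 0.101). In all 6 of 22 measured genes rose (27.3%, against 7.25% of all genes), 4 fell (18.2%, against 5.23%) and 12 did not pass. Of the 22 differences 16 were above 0, and the median was 0.45. Without 1 of the 6 arrays 2 or 3 of these rises and 3 of these falls were called again, and with the block 13 genes were higher and 5 lower. GSY2, the second glycogen synthase, did not pass either.

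**Figure D4:**
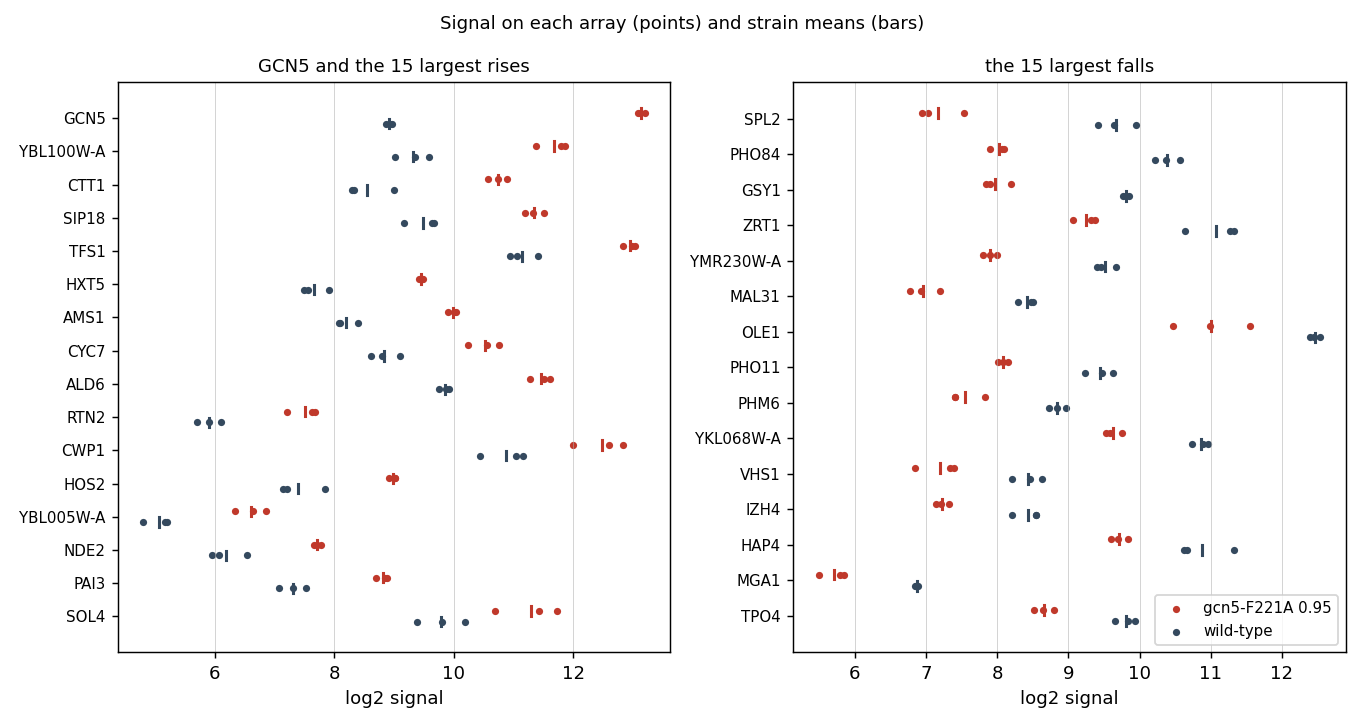
Log2 signal on each array (points) and strain means (vertical bars) for GCN5 and the 15 largest rises (left) and the 15 largest falls (right), with gcn5-F221A 0.95 in red above wild-type in dark blue. The rises and falls were picked from called genes whose arrays at 0.95 did not overlap the wild-type arrays, and those of GCN5 did not overlap either.

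Genes of sugar uptake and of the first steps of sugar use changed in part. HXT5, a hexose transporter that is not made during fast growth on glucose (chromosome VIII), had 9.41, 9.47 and 9.49 at 0.95 and 7.50, 7.56 and 7.91 in wild-type (difference 1.80, standard error 0.29, adjusted p = 0.00164). HXT4, a high-affinity transporter, fell by 0.94 (adjusted p = 0.0196) and SNF3, the sensor of low glucose, by 0.58 (adjusted p = 0.0451). The other 16 of 19 measured transporters and sensors did not pass the test, and HXT1, a low-affinity transporter, had a difference of -0.08. HXK1, the hexokinase that is repressed by glucose, rose by 1.11 (adjusted p = 0.0329) while HXK2, the main hexokinase on glucose, fell by 0.39 (adjusted p = 0.0233). The rise of HXK1 lost its call without any 1 of the 6 arrays. When 1 array was left out, the adjusted p was at most 0.112 for HXK1, 0.0959 for HXK2, 0.0749 for HXT4 and 0.158 for SNF3. ADH5, an alcohol dehydrogenase, had 9.29, 9.19 and 9.03 at 0.95 and 10.27, 10.31 and 10.29 in wild-type (difference -1.12, adjusted p = 0.00660). Among 23 measured genes of glycolysis and fermentation 1 rose (4.3%), 2 fell (8.7%) and 20 did not pass, against the same shares of all genes. MAL31, a maltose permease (chromosome II), had 6.77, 7.19 and 6.92 at 0.95 and 8.48, 8.29 and 8.50 in wild-type (difference -1.46, adjusted p = 5.84e-05). Its relative MAL11 was below the background level at 0.95 and was at least 1.46-fold lower (adjusted p = 0.00299).

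Of 13 measured genes of aldehyde dehydrogenases and acetyl-CoA synthesis 3 rose (23.1%), 0 fell and 10 did not pass the test, with a median of 0.20 and 4 differences below 0. ALD6, the cytosolic acetaldehyde dehydrogenase that makes acetate (chromosome XVI), had 11.28, 11.51 and 11.61 at 0.95 and 9.75, 9.87 and 9.92 in wild-type (difference 1.62, standard error 0.29, adjusted p = 0.00364). ALD4, its mitochondrial counterpart, had 13.05, 13.18 and 13.06 at 0.95 and 11.66, 11.75 and 11.94 in wild-type (difference 1.32, adjusted p = 4.75e-04). Both dehydrogenases were more than 2-fold higher on every array than on any wild-type array. PDA1, of pyruvate dehydrogenase, rose by 0.28 (adjusted p = 0.0190). The acetyl-CoA synthetases ACS1 and ACS2 had differences of -0.01 and -0.18. Of 16 measured genes of the tricarboxylic acid cycle 6 rose (37.5%) and 0 fell, all 16 differences were above 0, and the median was 0.42. With the block 11 were higher. IDH2, a subunit of the NAD-dependent isocitrate dehydrogenase, had 12.04, 12.00 and 11.97 at 0.95 and 11.16, 11.35 and 11.36 in wild-type (difference 0.72, adjusted p = 0.00474). Its partner IDH1 rose by 0.64, ACO1, aconitase, by 0.55, LSC2, of succinyl-CoA ligase, by 0.59, and the succinate dehydrogenase subunits SDH2 and SDH1 by 0.84 and 0.49. For IDH2 the study itself gives both directions. Its RT-PCR legend calls the gene down-regulated by the mutant, while its gene ontology list places it among genes that increased with mutant expression.

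In the respiratory chain and ATP synthase 8 of 40 measured genes rose (20.0%) and 0 fell, and 3 to 7 of the 8 were called again without 1 of the 6 arrays. CYC7, the cytochrome c isoform of low oxygen and stress, rose by 1.68 (adjusted p = 0.0143), while CYC1, the main isoform, had a difference of 0.02. NDE2, an external NADH dehydrogenase, had 7.71, 7.77 and 7.65 at 0.95 and 6.54, 5.96 and 6.07 in wild-type (difference 1.52, adjusted p = 0.0161). QCR2, of the cytochrome bc1 complex, rose by 0.78 (adjusted p = 8.42e-04), and the ATPase inhibitors STF1 and INH1 by 1.11 and 0.76. Of 69 mitochondrial ribosomal protein genes 6 rose (8.7%), near the 7.25% of all genes, and 2 or 3 of them were called again without 1 of the 6 arrays. With the block 15 were higher, as were 967 of all 5449 genes. HAP4, the activator subunit of the complex that drives respiratory genes, moved the other way. It had 9.70, 9.84 and 9.60 at 0.95 and 10.62, 10.67 and 11.33 in wild-type (difference -1.16, adjusted p = 0.0143), and it missed the threshold without wild-type replicate 3 (adjusted p = 0.0627) or 0.95 replicate 3 (0.0536).

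Activators of gluconeogenesis were higher, and most enzymes did not pass the test. SIP4, CAT8 and ADR1, transcription factors of growth without glucose, rose by 0.70, 0.67 and 0.59 (adjusted p = 0.0102, 0.0190 and 0.0180). They were 3 of 13 measured genes (23.1%, against 7.25% of all genes). Without 1 of the 6 arrays 1 to 3 of these rises were called again. When 1 array was left out, the adjusted p was at most 0.0462 for SIP4, 0.0777 for CAT8 and 0.0816 for ADR1. ADR1 was below the background level in wild-type and is given as at least 1.28-fold higher. ICL1, isocitrate lyase of the glyoxylate cycle, fell by 0.38 (adjusted p = 0.00963), and the other 9 of 13 measured genes did not pass. In the pentose phosphate pathway SOL4, a 6-phosphogluconolactonase, was the member called, with 10.69, 11.43 and 11.74 at 0.95 and 9.39, 9.80 and 10.18 in wild-type (difference 1.50, adjusted p = 0.0440, and 0.156 at most when 1 array was left out). TKL2, a transketolase, had 9.23, 9.78 and 9.79 at 0.95 and 7.87, 7.88 and 7.84 in wild-type. Its difference of 1.74 was as large, but the shared spread, with an SD of 1.67 among the arrays at 0.32, put its adjusted p at 0.0841. In the 6 arrays alone with the replicate block it was 9.58e-04.

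Some genes of ribosome assembly fell by small amounts. Of 73 measured genes of 60S subunit assembly 9 fell (12.3%) and 0 rose, and of 73 genes of the small subunit processome and 40S assembly 7 fell (9.6%) and 1 rose, against 5.23% of all genes that fell. Without 1 of the 6 arrays 3 to 5 of the 9 and 1 to 3 of the 7 falls were called again, when 152 to 206 of all 5449 genes were lower, and with the block 31 and 22 genes of the 2 lists were lower. REA1, the large ATPase that releases factors from pre-60S particles, had 12.58, 12.70 and 12.78 at 0.95 and 13.40, 13.39 and 13.41 in wild-type (difference -0.72, adjusted p = 1.74e-04). UTP20, of the processome, also fell by 0.72 (adjusted p = 0.00712), and DBP2, an RNA helicase, by 0.61 (adjusted p = 0.0396). LCP5, of the processome, went against the rest with a rise of 0.75. None of 127 measured cytoplasmic ribosomal protein genes was called by limma (2 were higher with the block), and their differences ran from -0.19 to 0.28 with a median of -0.01. These genes sit near the top of the range, and RPL10 had signals of 14.63, 14.67 and 14.66 at 0.95 and 14.66, 14.63 and 14.64 in wild-type.

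Purine and one-carbon synthesis had a larger share of falls, 9 of 26 measured genes (34.6%, against 5.23% of all genes) with 0 rises and a median of -0.34. ADE13, adenylosuccinate lyase, had 11.94, 12.22 and 12.30 at 0.95 and 12.63, 12.86 and 12.74 in wild-type (difference -0.59, adjusted p = 0.00759). ADE17, ADE2, ADE6 and ADE3 fell by 0.41, 0.40, 0.45 and 0.23, GCV2, of the glycine cleavage system, by 0.56, and SHM1, mitochondrial serine hydroxymethyltransferase, by 0.40. Of 53 measured genes of amino acid biosynthesis 9 fell (17.0%) and 0 rose, led by LYS4, homoaconitase, at -0.59 and LEU9, an isopropylmalate synthase, at -0.56. HIS3, whose transcription is a classical readout of Gcn5p activity, had 12.86, 12.89 and 12.84 at 0.95 and 12.81, 12.94 and 12.98 in wild-type, so the groups overlapped. Its difference was -0.05, with a 95% interval of -0.55 to 0.46 (adjusted p = 0.936). The shared spread widened this interval, with an SD of 0.67 at 0.32, beside 0.02 at 0.95 and 0.09 in wild-type. The study's own HIS3 measurements, by RT-PCR, were made in medium with the histidine analogue 3-aminotriazole, which is not named for these arrays. When 1 of the 6 arrays was left out, 4 or 5 of the 9 purine and one-carbon falls and 3 to 5 of the 9 amino acid falls were called again. With the block 16 and 17 genes of these lists were lower.

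Nitrogen and lipid genes gave single large changes. MEP3, an ammonium permease, had 8.98, 9.21 and 9.16 at 0.95 and 10.17, 9.93 and 9.73 in wild-type (difference -0.83, adjusted p = 8.42e-04). DUR3, the urea transporter, fell by 0.86, and DAL4 and DAL7, of allantoin use, by 0.67 and 0.63. In all 5 of 23 nitrogen catabolite genes fell (21.7%, against 5.23% of all genes) and 1 rose. Without 1 of the 6 arrays 2 to 4 of the 5 falls were called again, and with the block 8 genes were lower. OLE1, the only fatty acid desaturase of yeast (chromosome VII), had 10.47, 10.99 and 11.55 at 0.95 and 12.39, 12.54 and 12.45 in wild-type (difference -1.46, standard error 0.23, adjusted p = 0.00157). The arrays at 0.95 were spread over more than 1 log2 unit, yet all of them lay below wild-type. Of 17 fatty acid genes 3 fell (17.6%, against 5.23% of all genes) and 1 rose (5.9%, against 7.25%). Without 1 of the 6 arrays 1 or 2 of these 3 falls were called again. Among 27 genes of ergosterol synthesis 1 fell (3.7%), ECM22, a sterol regulatory factor, by 0.88 (adjusted p = 2.00e-04).

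In each list of the chromatin machinery 0 to 2 genes were called. Of 21 measured genes of SAGA and ADA subunits 2, GCN5 and SGF29, were called (9.5%, against 7.25% of all genes that rose). The call of GCN5 was set by the design, as its probe set also reads the plasmid transcript. This leaves SGF29 as the only other member called. SGF29, the subunit that binds methylated histone H3, had 7.29, 7.58 and 7.59 at 0.95 and 6.96, 7.08 and 6.92 in wild-type (difference 0.50, adjusted p = 0.00675). The median of the list was -0.03. ADA2 and NGG1, the partners of Gcn5p in the acetyltransferase module, had differences of 0.23 and -0.06 that did not pass. Of 20 genes of histone deacetylase complexes 1, HOS2, was called (5.0%, against 7.25% of all genes that rose). HOS2, the deacetylase of the Set3 complex (chromosome VII), had 9.01, 8.91 and 9.01 at 0.95 and 7.14, 7.85 and 7.20 in wild-type (difference 1.58, standard error 0.18, adjusted p = 1.74e-04). ELP3, a catalytic subunit of Elongator, fell by 0.55 (adjusted p = 0.0128) as 1 of 10 other acetyltransferase genes (10.0%, against 5.23% of all genes that fell), and by limma 0 of 10 measured histone genes were called. With the block 4 SAGA and ADA genes, GCN5 among them, were higher and 1 was lower, and 1 histone gene was higher and 1 lower. Over all 5449 genes the block gave 967 higher and 711 lower. HTB1, of histone H2B, had 14.34, 14.31 and 14.29 at 0.95 and 14.38, 14.37 and 14.36 in wild-type.

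Ty retrotransposon transcripts were higher. Ty elements are repeated in the genome, so a probe set can read several copies. YBL100W-A, a Ty2 frame (chromosome II), had 11.38, 11.79 and 11.87 at 0.95 and 9.35, 9.58 and 9.01 in wild-type (difference 2.37, standard error 0.21, adjusted p = 2.57e-05). YBL005W-A was below the background level in wild-type and was at least 2.68-fold higher (adjusted p = 7.53e-05). YAR010C, a bright Ty1 frame, had 13.88, 14.10 and 14.17 at 0.95 and 12.98, 13.27 and 12.83 in wild-type (difference 1.02, adjusted p = 5.73e-04). Of 13 measured frames 7 rose (53.8%, against 7.25% of all genes) and 0 fell, all differences were above 0 and the median was 0.66. Without 1 of the 6 arrays 5 to 7 of the 7 were called again. As probe sets can read the same copies, the frames may not be separate measurements. The mean signal over the frames was 9.99, 10.18 and 10.34 at 0.95 and 9.26, 9.40 and 9.49 in wild-type.

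**Figure D5:**
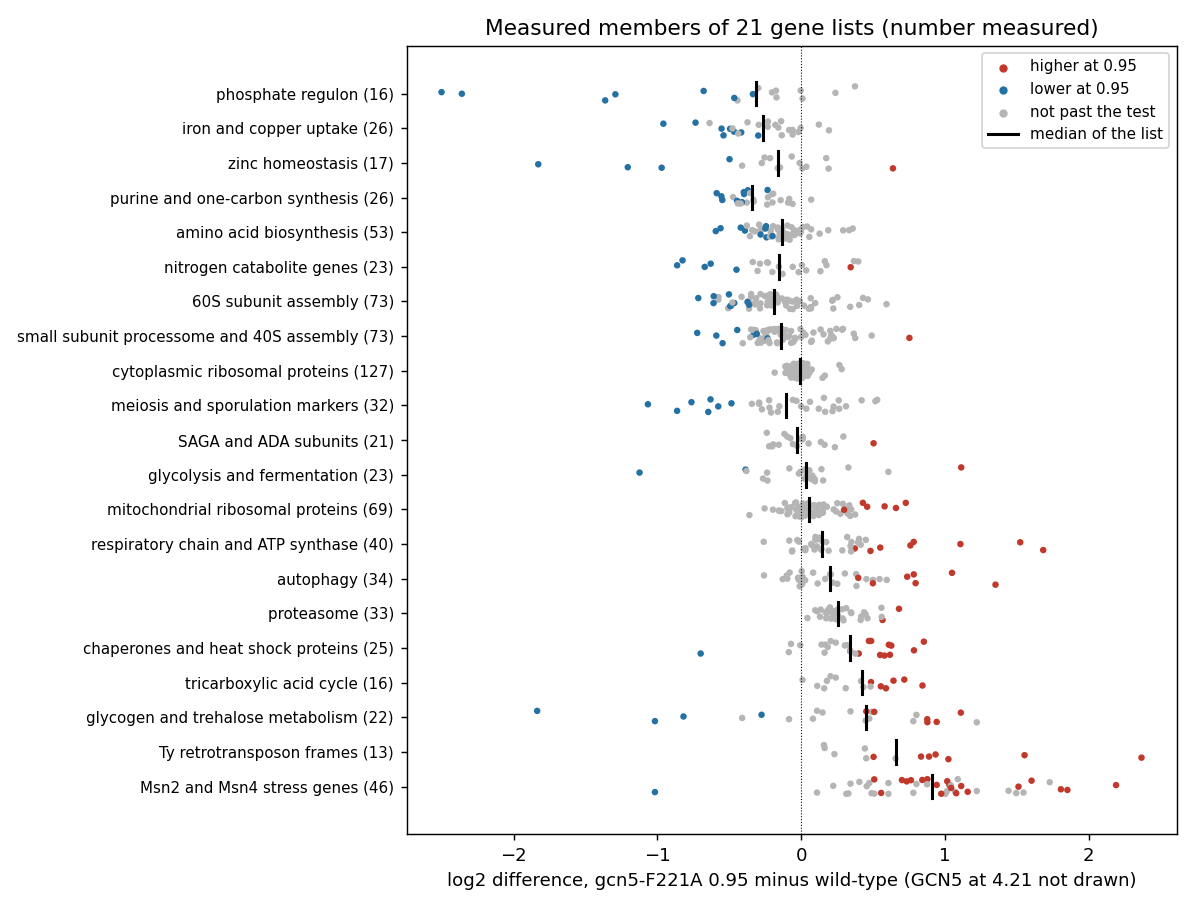
Log2 difference (gcn5-F221A 0.95 minus wild-type) of each measured member of 21 gene lists, with the number measured in parentheses and a black bar at the list's median. Red points rose and blue points fell at an adjusted p under 0.05, grey points did not pass, and the dotted line is the median of all genes tested.

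Among genes of proteolysis, of 34 autophagy genes 7 rose (20.6%, against 7.25% of all genes) and 0 fell. Without 1 of the 6 arrays 2 to 4 of the 7 were called again, and with the block 15 were higher. ATG38, of the autophagy lipid kinase complex, had 8.02, 8.01 and 8.11 at 0.95 and 6.19, 7.12 and 6.78 in wild-type (difference 1.35, adjusted p = 0.00106), and AMS1, the vacuolar mannosidase delivered by selective autophagy (chromosome VII), had 9.91, 10.04 and 10.00 at 0.95 and 8.09, 8.08 and 8.40 in wild-type (difference 1.79, adjusted p = 9.83e-04). All 33 measured proteasome genes had a difference above 0, with a median of 0.25, but 2 of them, RPN8 at 0.68 and RPN11 at 0.57, passed the test, while with the block 18 were higher. CWP1, a cell wall mannoprotein, had 12.00, 12.60 and 12.83 at 0.95 and 10.43, 11.04 and 11.15 in wild-type (difference 1.60, adjusted p = 0.0190). TIR4, another mannoprotein, moved the other way, with 7.31, 7.45 and 7.14 at 0.95 and 8.42, 8.27 and 8.19 in wild-type (difference -0.99, adjusted p = 7.46e-05). Of 11 measured multidrug transport genes 3 rose (27.3%) and 1 fell (9.1%), against 7.25% and 5.23% of all genes. SNQ2 and PDR10 rose by 0.79 and 0.52, and both were called whichever array was left out. PDR15 rose by 0.35 (adjusted p = 0.0461, and 0.184 at most when 1 array was left out). PDR12, the exporter of weak acids, fell by 0.76 (adjusted p = 0.0408), and it missed the threshold without any 1 of the 6 arrays. MGA1, a regulator of filamentous growth, fell by 1.16 (adjusted p = 1.63e-05), TPO4, a polyamine exporter, by 1.15 (adjusted p = 3.27e-04) and VHS1, a protein kinase, by 1.24 (adjusted p = 0.00102). YMR230W-A, a small uncharacterized frame, had 8.00, 7.90 and 7.81 at 0.95 and 9.67, 9.41 and 9.46 in wild-type (difference -1.61, adjusted p = 0.00106).

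Of the 15 largest falls 13 were called whichever array was left out, the exceptions being HAP4 and YKL068W-A, a small uncharacterized frame (difference -1.24, adjusted p = 0.0455 and 0.125 at most). Of the 15 largest rises 6 were, namely YBL100W-A, HXT5, AMS1, ALD6, HOS2 and YBL005W-A. The other rises lost the call without at least 2 of the 6 arrays, with adjusted p up to 0.0575 for CYC7, 0.0645 for NDE2, 0.0671 for CTT1, 0.0765 for RTN2, 0.0772 for TFS1, 0.0838 for CWP1, 0.120 for PAI3, 0.148 for SIP18 and 0.156 for SOL4. Without replicate 1, 2 or 3 at 0.95, 4, 8 and 7 of the 15 rises lost the call, and without wild-type replicate 1, 2 or 3, 7, 8 and 4 did.

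The strain at 0.95 was also tested against the weaker promoters, to find where it stood apart from them. Against 0.68, 272 genes were called (4.99%), and against 0.32, 104 (1.91%). HXT5 averaged 9.46 at 0.95, against 8.13 at 0.68 (adjusted p = 0.0215) and 7.82 at 0.32 (adjusted p = 0.0127). OLE1 averaged 11.00 at 0.95, against 12.20 at 0.68 (adjusted p = 0.0109) and 12.37 at 0.32 (adjusted p = 0.00905), beside 12.46 in wild-type. IZH4 averaged 7.22 at 0.95, against 8.11 at 0.68 (adjusted p = 0.00660) and 8.73 at 0.32 (adjusted p = 3.70e-04). PHO84 averaged 8.02 at 0.95, 7.84 at 0.68 and 8.35 at 0.32, and its difference of 0.18 from 0.68 had a 95% interval of -0.13 to 0.50 (adjusted p = 0.572). HOS2 averaged 8.98 at 0.95, 8.67 at 0.68 and 8.94 at 0.32, and its difference of 0.04 from 0.32 had an interval of -0.34 to 0.42 (adjusted p = 0.923). Against the gcn5 null strain, ZRT1 averaged 9.25 at 0.95 and 11.80 in the null strain (adjusted p = 2.72e-06), beside 11.08 in wild-type.

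Called genes were spread over all 16 chromosomes, with median differences per chromosome between -0.02 and 0.02. Within 20 kb of a chromosome end lay 13 of the 395 genes that rose (3.29%) and 20 of the 285 that fell (7.02%), against 178 of all 5449 genes (3.27%).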

How the data were processed

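RNA was hybridized to Affymetrix Yeast 2.0 arrays, and per the labels and the study's methods the authors summarized each probe set with RMA (background correction, then quantile normalization), which gives log2 signals. The deposited log2 values were used unchanged. RMA assumes like distributions on all arrays, so a global shift of RNA per cell would not be seen, and differences near the top of the range are compressed. Of 10928 probe sets 5498 carry 1 S. cerevisiae gene, and for the 47 genes with several the brightest was kept, which left 5449 genes. Genes that share sequence with close copies (Ty frames, PHO11, hexose and maltose transporters, seripauperins) may be read together.

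One model with a mean for each of 5 strains was fitted to 15 arrays with limma 3.58.1 in R 4.3.3. The labels call the arrays of a strain biological replicates. Same-numbered arrays of 0.95 and wild-type had residual correlations of 0.72, 0.19 and 0.47 over genes. After these were seen, a block on the number was fitted to these 6 arrays as an alternative, and the main fit has no pairing. The labels state no shared day. Over all 15 arrays same-numbered arrays did not deviate together (mean r -0.07, and 0.04 for other numbers). As the block was picked from the same data, its counts are not separate support for the calls. Where the lower mean of a gene was under 5.18, its fold is a bound against that level. Named genes were GCN5, genes the study measured by other assays, the 15 largest rises and falls with arrays that kept apart, and from each of 48 lists at most 4 called members. Members and lists were chosen with earlier results of these data known. In the lists 21 genes had no probe set of their own. The fit was tested on simulated data with 200 genes changed each way by a log2 of 1 among 5449, of which it found 188 of the rises and 186 of the falls and called 10 of 5049 unchanged genes. The simulated errors were independent between arrays, with 1 spread per gene in all strains. Recovery of smaller differences, or with unequal spread or arrays that deviate together, was not tested.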

Additional observations from a re-analysis of the deposited data

Results flagged for a closer look

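Probe sets that the gene table does not name were not used in the comparison. In a fit of every probe set of the array, 36 of 3470 such probe sets were called at 0.95 against wild-type, 11 higher and 25 lower, and 17 of the 36 were above the S. pombe background level in at least 1 strain. Of 1747 S. pombe probe sets 14 were called in the same fit. What the unnamed probe sets read was not determined.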

How the results depend on the processing

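The call count of 680 and its split of 395 higher and 285 lower stayed within a factor of 1.5 without dim genes, with each choice of probe sets, after both renormalizations, with the trend and robust fitting, in the 6 arrays alone (926 calls), and with the replicate number as a block in the fit of 15 arrays (560 calls, 337 higher and 223 lower). The share of calls that were higher was 58.1%, and 49.1% after quantile normalization over S. cerevisiae probe sets alone (325 higher and 337 lower), where the median of all genes was -0.026. Array weights estimated gene by gene gave 2174 calls (1109 higher and 1065 lower), and unadjusted p-values 1455 (795 and 660). A test against a fold change of 1.2 gave 92 (59 and 33, of which 25 were over 2-fold higher). The replicate block in the 6 arrays, chosen after seeing the data, gave 1678 (967 and 711). Leaving out each of the 15 arrays gave 379 to 947 calls, 218 to 539 higher and 152 to 408 lower, and 30 to 58 over 2-fold higher. The lowest values came from leaving out arrays of the 2 strains compared, and the highest count from leaving out 0.68 replicate 1. The cause of these shifts was not tested. Of 147 named genes, 134 were called and 68 of them held in all 15 such fits, and no named gene reversed its direction while called in either fit. The median of the maltose list was 0.10, and -0.24 without dim genes. The number of arrays limits what can be seen, and the planned count of promoter motifs was not run because no sequence table was used here.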

Other observations

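GCN5 lies on chromosome VII. Of the 12 measured genes nearest to it in order, 6 on each side, 3 were called, where 12.5% of all genes were. SOL4 (difference 1.50) and RAD2, a nuclease of DNA repair (difference 0.41, adjusted p = 0.0183), were higher at 0.95 and MGA1 was lower (difference -1.16). The gene next to GCN5 on its left, NOP19, and that on its right, PUP2, did not pass the test.

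Genes of meiosis and sporulation, which haploid cells do not use, were mostly dim, and 7 of 32 fell (21.9%, against 5.23% of all genes) while 0 rose. Without 1 of the 6 arrays 4 to 7 of these were called again, and with the replicate block 12 were lower and 4 higher. SPS1, a kinase of spore wall formation, had signals of 5.93, 5.75 and 5.59 at 0.95 and 7.01, 6.82 and 6.63 in wild-type (difference -1.07, adjusted p = 3.27e-04). COS12, of a subtelomeric membrane protein family, had 7.58, 7.51 and 7.32 at 0.95 and 6.38, 6.60 and 6.12 in wild-type (difference 1.10, adjusted p = 6.16e-04), and it was the member called of 9 measured.

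Among cell cycle genes 2 of 13 cyclins rose (15.4%, against 7.25% of all genes). Without 1 of the 6 arrays 1 or 2 were called again, and with the replicate block 7 were higher. CLN2, a G1 cyclin, had 10.20, 10.01 and 10.12 at 0.95 and 9.65, 9.63 and 9.62 in wild-type (difference 0.48, adjusted p = 0.00335), and PCL9, a partner of the kinase Pho85p, rose by 0.52 (adjusted p = 0.0339).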
